A study of Mus musculus with 24 samples.

Results

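The genes of glycolysis, lactate handling and the pentose phosphate pathway were followed in bone marrow–derived macrophages (BMDM), as a list of 38 genes matched by symbol to the 56884 genes of the count table. All 38 matched 1 Ensembl identifier each, and all 38 were among the 13679 genes with enough counts to be tested. BMDM were grown with M-CSF from the bone marrow of 4 wild-type female C57BL/6J mice aged 9 weeks, numbered 1, 2, 4 and 5, and every mouse contributed 1 RNA-seq library to each of 6 conditions (24 libraries). Naive cells received no cytokine for 24 hours. IL-4/IL-13 cells received IL-4 and IL-13, each at 20 ng/ml, for 24 hours. The remaining conditions combined these cytokines with an inhibitor that was also given for 1 hour before them. The inhibitors were tunicamycin at 5 µg/ml, which blocks N-glycosylation in the endoplasmic reticulum, Sal003 at 10 µM, which blocks the dephosphorylation of the translation factor eIF2α, and oligomycin at 1 µM, an inhibitor of the ATP synthase of mitochondria. Oligomycin was used in 2 sets of 4 libraries, and in 1 of them ISRIB, a compound that counteracts the integrated stress response (ISR), was present at 1 µM. The sample titles place ISRIB in set A and the library names place it in set B, so the sets are kept apart here and neither is called ISRIB-treated. No library received an inhibitor without the cytokines.

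Glycolysis takes up glucose through transporters of the SLC2 family, traps it with hexokinase and splits it, through phosphofructokinase and aldolase, into triose phosphates that are oxidized to pyruvate. Pyruvate is either reduced to lactate by lactate dehydrogenase and exported through monocarboxylate transporters, or enters mitochondria and the pyruvate dehydrogenase complex, which pyruvate dehydrogenase kinases switch off. The pentose phosphate pathway branches off at glucose 6-phosphate and makes NADPH and ribose 5-phosphate. In macrophages, these routes are known for their use in inflammatory activation, whereas IL-4 activation is known for its reliance on mitochondrial respiration.

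The reads counted on genes numbered 16238727 to 26725278 a library, with a median of 18999998, and the 38 genes took 0.738% to 0.958% of them. Among naive libraries, that of mouse 2 stood apart, with 0.846% of its counts on the 38 genes against 0.738% to 0.740% in the other 3. Macrophage markers (*Adgre1*, *Csf1r*, *Cd68*, *Itgam*, *Lyz2*, *Fcgr1*, *Mertk*) summed to 30562 to 36278 CPM in naive, 11363 to 13762 in IL-4/IL-13, 16062 to 17638 in tunicamycin, 13787 to 15509 in Sal003, 8716 to 9531 in set A and 13396 to 15289 in set B libraries, where CPM is the count relative to the library size after TMM scaling. Most of the naive sum was *Lyz2*, at 21157 to 26520 CPM in naive and 5535 to 6852 in IL-4/IL-13 libraries. With the cytokines 6 of the 7 were lower, beside 30.4% of all genes tested. With tunicamycin 3 were higher and 3 lower, beside 38.7% and 37.7% of all genes. *Adgre1* went from 977 ± 101 to 6674 ± 537 CPM and *Csf1r* from 3729 ± 358 to 821 ± 48.5 CPM. The part of these shifts in the results below was not tested. *Arg1*, a gene that IL-4 is known to induce, was at 455 ± 33.2 CPM (mean ± SD, n = 4, here and below) in IL-4/IL-13 cells and no naive library had more than 2 counts of it. It was at 0 to 0.238 CPM with tunicamycin and 94.9 to 154 with Sal003. In the oligomycin libraries *Arg1* was at 110 to 179 CPM (set A) and 244 to 335 (set B). *Retnla* was at 7156 to 8055 CPM and *Irf4* at 297 to 316 in IL-4/IL-13 libraries. With tunicamycin they were at 0 to 0.0476 and 1.13 to 2.04 CPM, and with Sal003 at 67.9 to 259 and 71.6 to 110. In set A they had 33.4 to 58.4 and 24.6 to 26.4 CPM, and in set B 161 to 387 and 65.1 to 82.2. By these genes, every inhibitor comparison below also holds a lower cytokine response, and the genes order the inhibitors differently. The part of this lower response in the results was not tested. The ISR gene *Trib3* had 3.55 ± 0.502 CPM in IL-4/IL-13 cells, 834 ± 28.4 with tunicamycin and 33.8 ± 5.48 with Sal003. It had 541 ± 14.8 CPM in oligomycin set A and 146 ± 4.35 in set B. *Atf4* had 124 to 143 CPM in IL-4/IL-13 libraries, 1066 to 1110 with tunicamycin and 173 to 245 with Sal003. It had 699 to 706 CPM in set A and 460 to 505 in set B. *Asns* had 7.26 to 9.34 CPM in IL-4/IL-13 libraries, 180 to 188 with tunicamycin and 29.8 to 42.7 with Sal003. It had 159 to 163 CPM in set A and 139 to 151 in set B, which lie closer together than for *Trib3*.

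Other cell types were measured by their markers in the same libraries. Neutrophil markers (*Ly6g*, *S100a8*, *S100a9*, *Ngp*, *Mpo*, *Elane*) summed to 31.4 to 61.2 CPM in naive, 18.1 to 33.4 in IL-4/IL-13, 4.20 to 6.69 in Sal003, 1.97 to 3.72 in set A and 14.5 to 18.4 in set B libraries. With tunicamycin their sum was 0.0513 to 0.285 CPM, and *Ly6g* and *Elane* were at 0 in every tunicamycin and set A library. Stroma markers (*Col1a1*, *Col1a2*, *Dcn*) ranged from 17.0 to 129 CPM in naive and from 14.3 to 81.3 in IL-4/IL-13 libraries, and from 3.36 to 52.8 with inhibitors. These ranges follow the mouse: in every condition *Col1a1* was highest in mouse 1 and lowest in mouse 5. In naive libraries it had 62.0 CPM in mouse 1 and 8.14 in mouse 5, and in IL-4/IL-13 libraries 36.7 and 5.40. Dendritic cell markers (*Flt3*, *Zbtb46*, *Xcr1*) summed to 2.52 to 5.61 CPM in naive, 4.53 to 6.37 in IL-4/IL-13 and 0.907 to 2.28 in inhibitor libraries. Sums stayed at or below 1.22 CPM for B cells, 0.958 for mast cells and basophils, 0.227 for T cells and 0.162 for erythroid cells. In bulk RNA, fewer cells of a type and less RNA per cell cannot be told apart, and the part of these cells in the results below was not tested.

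For 12 of the 38 genes, at least 20% of the 100-base windows of the main transcript also occur in another gene or pseudogene, so that unique mapping or unstranded counting can lose or shift their reads. They are *Gapdh* (85.1%), *Aldoa* (85.3%), *Pgk1* (67.0%), *Eno1* (51.9%), *Pgam1* (47.8%), *Pfkp* (41.1%), *Slc16a3* (39.1%), *Pfkfb2* (37.1%), *Rpe* (36.5%), *Pkm* (31.2%), *Ldha* (26.2%) and *Pfkl* (22.3%). Their levels are therefore uncertain, and so are the isoenzyme shares below that include them. A change of such a gene between conditions is given as measured.

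The comparison of IL-4/IL-13 with naive cells shows how the cytokines alone moved the pathway. Of the 38 genes, 20 rose and 9 fell at an adjusted *P* below 0.05, beside 30.1% and 30.4% of all 13679 genes. Changes of at least 2.5-fold were found for 4, beside 11.5% of all genes. These were *Slc16a1* and *Pfkp*, which rose, and *Slc2a3* and *Aldoc*, which fell. The median log2 fold change over the 38 genes was 0.22, against -0.02 over all genes tested. Without the naive library of mouse 2, an alternative added after the data were seen, 21 genes rose, 8 fell and 6 changed at least 2.5-fold. The shares of all genes were not computed for that fit, so these counts cannot be read against them.

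The inhibitor comparisons show how the pathway differed from IL-4/IL-13 cells when a stressor was added, and they share the same 4 IL-4/IL-13 libraries as reference. With tunicamycin, 13 genes were higher and 21 lower (beside 38.7% and 37.7% of all genes), 7 of them by at least 2.5-fold (22.6% of all genes), with a median of -0.26 against 0.01 over all genes. These 7 were *Slc2a3* and *Pfkfb3*, which were higher, and *Pfkfb4*, *Aldoc*, *Ldhb*, *Slc16a1* and *Pdk2*, which were lower. With Sal003, 10 were higher and 14 lower (25.9% and 24.6% of all genes), and *Ldhb* and *Slc16a1* passed 2.5-fold (7.71% of all genes did). The count of 10 rested on mouse 1, since without that mouse 5 genes were higher, and 5 were also counted when libraries were scaled by their totals alone. In oligomycin set A, 12 were higher and 18 lower (34.0% and 32.2% of all genes), and *Pfkfb4*, *Ldhb* and *Pdk2* passed 2.5-fold (12.7% of all genes). In set B, 16 were higher and 13 lower (27.9% and 26.4% of all genes), and *Ldhb* alone of the 38 passed 2.5-fold (7.96% of all genes). Median log2 fold changes over the 38 genes were -0.03 (Sal003), -0.09 (set A) and 0.07 (set B), against 0.00 to 0.01 over all genes.

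**Figure D1:**
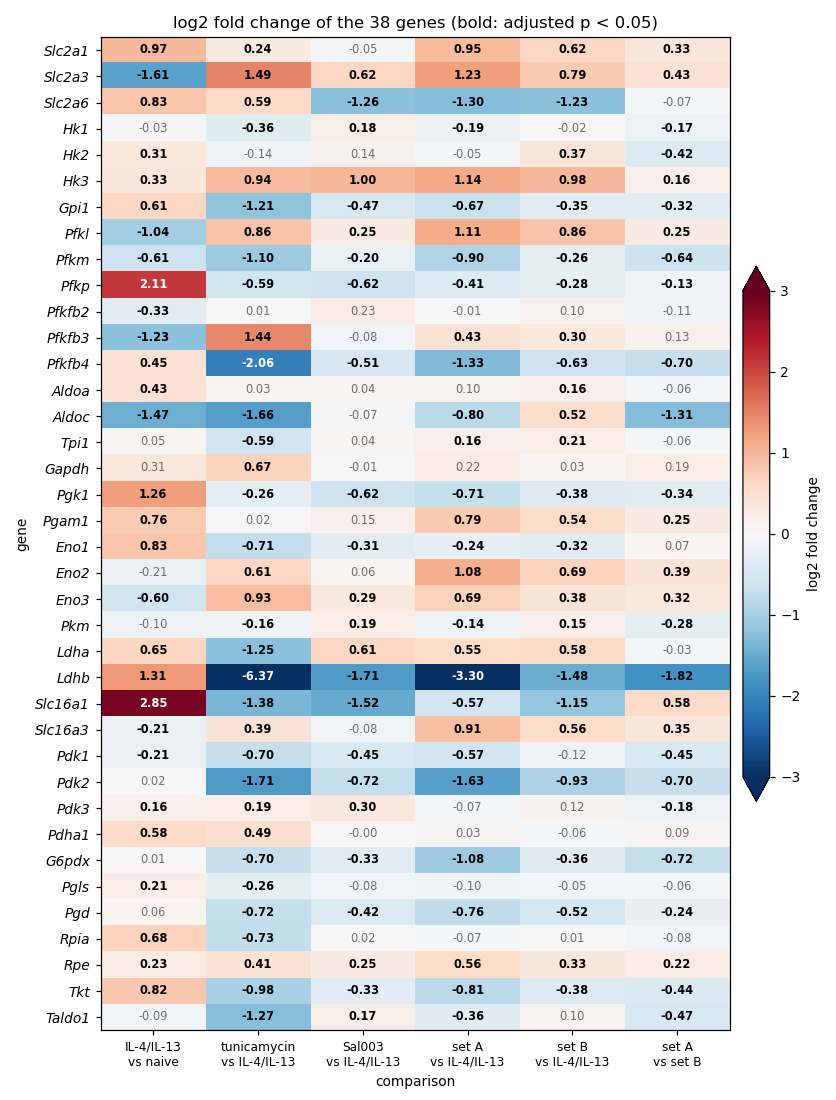
Log2 fold change of each of the 38 genes (vertical axis, ordered by step from glucose uptake to the pentose phosphate pathway) in 6 comparisons (horizontal axis), 4 libraries per group, with bold figures where the adjusted p is below 0.05. The color scale ends at 3 in both directions, beyond which lie *Ldhb* with tunicamycin (-6.37) and in oligomycin set A (-3.30), and the largest rise is that of *Slc16a1* with IL-4/IL-13 (2.85).

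The bases upstream of *Slc16a1* and *Pfkp* are shown because these genes carry the largest cytokine rises. Each run is the 250 bases before the start of the main transcript in GRCm39, 5′ to 3′ on the gene's strand, and capitals mark matches, on either strand, to the core of the hypoxia response element (ACGTG or GCGTG), to the E-box CACGTG, which contains ACGTG, to the C/EBP-ATF element TTGCATCA, and to the STAT6-type pair TTC and GAA separated by any 4 bases.
Slc16a1 (chr3:104545561-104545810, plus strand): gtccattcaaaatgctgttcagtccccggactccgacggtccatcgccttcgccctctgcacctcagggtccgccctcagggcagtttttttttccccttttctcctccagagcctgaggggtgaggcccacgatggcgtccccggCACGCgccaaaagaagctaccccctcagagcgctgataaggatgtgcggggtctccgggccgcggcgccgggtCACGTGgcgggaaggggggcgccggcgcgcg
Pfkp (chr13:6698971-6699220, minus strand): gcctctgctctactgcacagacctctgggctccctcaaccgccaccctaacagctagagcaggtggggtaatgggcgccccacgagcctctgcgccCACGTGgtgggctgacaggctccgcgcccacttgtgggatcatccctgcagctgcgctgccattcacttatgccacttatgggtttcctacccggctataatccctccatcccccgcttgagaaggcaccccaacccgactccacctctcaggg

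The *Slc16a1* and *Pfkp* windows each hold 1 E-box, and that of *Ldha* holds 2. Over the 38 genes, 5 windows (*Eno3*, *Ldha*, *Pdk2*, *Pfkp* and *Slc16a1*) hold CACGTG, against 6.28% of the windows of 21667 protein-coding genes. ACGTG or GCGTG occurs in 27 of 38, against 41.3% of all windows. The 21667 genes were not limited to those with enough counts to be tested, whereas all 38 were tested. The shares are therefore not of like sets. The STAT6-type pair occurs in *Gpi1*, *Hk3* and *Pfkfb3* (5.89% of all windows), and TTGCATCA in none of the 38 (0.891% of all windows). A match describes letters only and not binding. The *Slc16a1* window overlaps an exon of the noncoding gene *Gm65697* on the opposite strand, and the *Ldha* window is not printed because other *Ldha* transcripts have first exons in it. The annotated gene also reaches into other windows counted above, for example those of *Hk3*, *Gapdh*, *Eno1* and *Eno3*. Such windows are not purely upstream of the gene.

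Glucose transporters moved apart. *Slc2a1* (GLUT1, the common basal transporter) rose from 29.9 ± 0.904 CPM in naive to 58.3 ± 7.19 in IL-4/IL-13 cells (log2 fold change 0.97 ± 0.09 SE, adjusted *P* = 1.3e-09). It was higher still in oligomycin set A (112 ± 7.81 CPM, log2 fold change 0.95 ± 0.09 SE, adjusted *P* = 5.3e-10) and set B (89.8 ± 10.9 CPM, log2 fold change 0.62 ± 0.09 SE, adjusted *P* = 1.2e-06). With tunicamycin the log2 difference was 0.24 (adjusted *P* = 0.014), which did not pass without mouse 1, and with Sal003 it was -0.05 (adjusted *P* = 0.69).

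*Slc2a3* (ENSMUSG00000003153, chr6:122704768-122778599 of GRCm39, minus strand) encodes GLUT3, a transporter of high glucose affinity. Its levels were 15.8, 17.2, 20.5 and 17.9 CPM in the naive libraries of mice 1, 2, 4 and 5, in this order here and below, and 5.18, 5.14, 7.58 and 5.46 CPM in the IL-4/IL-13 libraries. With inhibitors they were 16.3, 15.1, 18.3 and 16.3 CPM (tunicamycin) and 8.87, 8.96, 8.77 and 9.26 (Sal003). In the oligomycin libraries they were 12.9, 12.5, 16.0 and 13.3 (set A) and 10.3, 9.53, 10.6 and 10.1 (set B). Every IL-4/IL-13 library was below every library of the other 5 conditions. The cytokines lowered *Slc2a3* 3.05-fold (log2 fold change -1.61 ± 0.11 SE, adjusted *P* = 2.2e-12). Against IL-4/IL-13, it was 2.82-fold higher with tunicamycin (log2 fold change 1.49 ± 0.11 SE, adjusted *P* = 3.6e-12). The log2 fold changes were 0.62 ± 0.11 SE (adjusted *P* = 6.7e-05) with Sal003, 1.23 ± 0.11 SE (adjusted *P* = 3.6e-10) in set A and 0.79 ± 0.11 SE (adjusted *P* = 1.5e-06) in set B.

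*Slc2a6* (GLUT6, a transporter found largely inside the cell) rose with the cytokines from 86.2 ± 7.84 to 154 ± 7.15 CPM (log2 fold change 0.83 ± 0.06 SE, adjusted *P* = 1.4e-11). It rose again with tunicamycin to 231 ± 5.21 CPM (log2 fold change 0.59 ± 0.06 SE, adjusted *P* = 2.6e-09), and fell with Sal003 to 64.3 ± 3.59 CPM (log2 fold change -1.26 ± 0.06 SE, adjusted *P* = 2.5e-14). It also fell in set A to 62.4 ± 3.75 and in set B to 65.6 ± 4.86 CPM (log2 fold changes -1.30, adjusted *P* = 2.7e-15 and -1.23, adjusted *P* = 2.5e-14). Tested directly, tunicamycin exceeded Sal003 by 1.85 (adjusted *P* = 1.1e-18), set A by 1.89 (adjusted *P* = 1.2e-18) and set B by 1.82 (adjusted *P* = 1.5e-18) on the log2 scale. Per kilobase of exon, *Slc2a6* held 69.0 ± 1.88% of the summed level of these 3 transporters in naive, 72.6 ± 2.16% in IL-4/IL-13 and 75.6 ± 0.709% in tunicamycin cells. In set A its share was 35.4 ± 2.43% and that of *Slc2a1* 60.0 ± 2.42%, and in set B 42.1 ± 1.49% and 54.0 ± 1.61%. With the longest transcript as length the set B shares were 48.3 ± 1.51% and 47.9 ± 1.62%, so that their order in set B rests on the length used. *Slc2a8* and *Slc2a9*, with group means of 14.1 to 29.9 and 16.4 to 29.8 CPM, are not in this sum. *Slc2a3* held between 1.61% (IL-4/IL-13) and 8.42% (naive) of it.

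Among the hexokinases, which phosphorylate glucose, *Hk3* had the highest level per kilobase in every condition. Its levels were 273, 300, 271 and 285 CPM in naive and 338, 356, 354 and 368 CPM in IL-4/IL-13 libraries. They were 650, 746, 630 and 690 CPM with tunicamycin and 700, 733, 642 and 766 with Sal003. Oligomycin libraries had 765, 792, 783 and 785 CPM in set A and 649, 738, 648 and 752 in set B. All inhibitor libraries lay above all IL-4/IL-13 libraries, which in turn lay above all naive ones. *Hk3* rose with the cytokines by 0.33 ± 0.06 SE (adjusted *P* = 4.4e-05) on the log2 scale. Against IL-4/IL-13 it was higher by 0.94 ± 0.06 SE (adjusted *P* = 3.6e-13) with tunicamycin and 1.00 ± 0.06 SE (adjusted *P* = 7.8e-13) with Sal003. In the oligomycin sets it was higher by 1.14 ± 0.06 SE (adjusted *P* = 1.9e-14) (set A) and 0.98 ± 0.06 SE (adjusted *P* = 1.0e-12) (set B). *Hk3* accounted for 73.6 ± 1.90% of the length-scaled hexokinase level in naive, 76.4 ± 1.05% in IL-4/IL-13, 88.1 ± 1.10% in tunicamycin and 88.6 ± 0.148% in set A cells. The summed level of the 3 hexokinases went from 96.7 ± 3.37 counts per kilobase (relative to the library total, on the CPM scale) in IL-4/IL-13 to 190 ± 3.41 in set A cells.

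*Hk1* and *Hk2*, the isoenzymes that bind mitochondria, moved little. *Hk1* ranged from 86.4 CPM (tunicamycin) to 126 CPM (Sal003), and was lower with tunicamycin (log2 fold change -0.36 ± 0.06 SE, adjusted *P* = 3.1e-06). Its smaller differences with Sal003 (0.18, adjusted *P* = 0.011) and in set A (-0.19, adjusted *P* = 0.0049) did not pass when 1 or more of the mice were left out. *Hk2* rose with the cytokines (log2 fold change 0.31 ± 0.07 SE, adjusted *P* = 3.2e-04) and in set B (log2 fold change 0.37 ± 0.07 SE, adjusted *P* = 5.2e-05). Its log2 differences with tunicamycin, Sal003 and set A were -0.14 (adjusted *P* = 0.061), 0.14 (adjusted *P* = 0.092) and -0.05 (adjusted *P* = 0.49). With the mouse as a block the first pair passed (adjusted *P* = 0.033 and 0.046). *Gpi1*, the glucose 6-phosphate isomerase, rose from 460 ± 37.6 to 704 ± 9.74 CPM with the cytokines (log2 fold change 0.61 ± 0.05 SE, adjusted *P* = 2.4e-10). It fell to 304 ± 5.49 CPM with tunicamycin (log2 fold change -1.21 ± 0.05 SE, adjusted *P* = 1.5e-16). Its log2 fold changes for Sal003, set A and set B were -0.47 (adjusted *P* = 4.1e-08), -0.67 (adjusted *P* = 4.0e-11) and -0.35 (adjusted *P* = 3.8e-06).

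Phosphofructokinase catalyzes the committed step of glycolysis, and with the cytokines *Pfkp* rose while *Pfkl* and *Pfkm* fell. *Pfkp* (ENSMUSG00000021196, chr13:6629798-6698970 of GRCm39, minus strand), the platelet-type subunit, had 69.9, 64.4, 70.3 and 64.0 CPM in naive and 281, 290, 291 and 295 CPM in IL-4/IL-13 libraries. With inhibitors the values were 193, 187, 198 and 189 CPM (tunicamycin) and 194, 185, 193 and 179 (Sal003). In the oligomycin libraries they were 216, 220, 217 and 214 (set A) and 237, 243, 243 and 229 (set B). All inhibitor libraries lay between the naive and the IL-4/IL-13 libraries. The rise with the cytokines was 4.30-fold (log2 fold change 2.11 ± 0.04 SE, adjusted *P* = 1.1e-22). Log2 fold changes against IL-4/IL-13 were -0.59 (adjusted *P* = 5.0e-13) with tunicamycin, -0.62 (adjusted *P* = 1.5e-12) with Sal003, -0.41 (adjusted *P* = 8.8e-10) in set A and -0.28 (adjusted *P* = 9.5e-07) in set B.

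*Pfkl*, the liver-type subunit, fell with the cytokines from 77.0 ± 10.3 to 37.4 ± 1.69 CPM (log2 fold change -1.04 ± 0.08 SE, adjusted *P* = 3.5e-11). It was higher with tunicamycin (67.9 ± 4.71 CPM, log2 fold change 0.86 ± 0.08 SE, adjusted *P* = 5.7e-10), in set A (81.0 ± 5.78 CPM, log2 fold change 1.11 ± 0.08 SE, adjusted *P* = 7.3e-12) and in set B (68.2 ± 6.62 CPM, log2 fold change 0.86 ± 0.08 SE, adjusted *P* = 1.8e-09). The Sal003 difference was 0.25 (adjusted *P* = 0.013), a call lost without mouse 1 or 4. *Pfkm*, the muscle-type subunit, fell with the cytokines (log2 fold change -0.61 ± 0.07 SE, adjusted *P* = 3.5e-08) and further with tunicamycin (log2 fold change -1.10 ± 0.08 SE, adjusted *P* = 2.2e-12) and in set A (log2 fold change -0.90 ± 0.08 SE, adjusted *P* = 1.4e-10). It had log2 differences of -0.20 (adjusted *P* = 0.028) for Sal003, lost without mouse 1, 2 or 5, and -0.26 (adjusted *P* = 0.0043) for set B. In the length-scaled total, *Pfkp* held 32.5 ± 2.44% in naive and 79.4 ± 0.643% in IL-4/IL-13 cells, and *Pfkl* 47.4 ± 3.29% and 13.1 ± 0.582%. With the inhibitors *Pfkp* held 65.8 ± 2.00% (tunicamycin), 69.9 ± 0.388% (Sal003), 64.8 ± 1.34% (set A) and 68.4 ± 1.60% (set B). Exons of *Pfkp* and *Pfkl* overlap *Pitrm1* and *Cfap410* on the opposite strand, so these shares are less certain than those of the hexokinases.

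PFKFB enzymes make and degrade fructose 2,6-bisphosphate, the main activator of phosphofructokinase, and *Pfkfb3* and *Pfkfb4* moved in opposite directions with the cytokines, tunicamycin and both oligomycin sets, whereas with Sal003 only *Pfkfb4* was called. *Pfkfb3* (ENSMUSG00000026773, chr2:11476244-11558888 of GRCm39, minus strand), whose enzyme mostly makes the activator, had 89.9, 75.8, 86.5 and 89.4 CPM in naive, 38, 33.5, 36.1 and 37.9 in IL-4/IL-13 and 99.3, 100, 93.8 and 100 in tunicamycin libraries. The values were 34.1, 34.2, 33.2 and 36.2 CPM with Sal003. Oligomycin libraries had 48.7, 44.5, 52.2 and 50.9 CPM in set A and 45.5, 45.4, 44.1 and 44.5 in set B. All tunicamycin libraries were above all others, and Sal003 overlapped with IL-4/IL-13. *Pfkfb3* fell with the cytokines (log2 fold change -1.23 ± 0.06 SE, adjusted *P* = 1.0e-15) and was 2.71-fold higher with tunicamycin (log2 fold change 1.44 ± 0.06 SE, adjusted *P* = 1.2e-17). Set A and set B were higher by 0.43 ± 0.06 SE (adjusted *P* = 2.9e-07) and 0.30 ± 0.06 SE (adjusted *P* = 7.1e-05) on the log2 scale, and the Sal003 difference was -0.08 ± 0.06 SE (adjusted *P* = 0.28).

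*Pfkfb4* (ENSMUSG00000025648, chr9:108820832-108862847 of GRCm39, plus strand) had 138, 142, 133 and 131 CPM in naive, 185, 187, 186 and 184 in IL-4/IL-13 and 46.0, 46.0, 43.7 and 41.5 in tunicamycin libraries. In Sal003 libraries it had 130, 133, 134 and 125 CPM, in set A 76.7, 74.9, 73.5 and 69.7 and in set B 122, 117, 116 and 124. The IL-4/IL-13 libraries were above all others, and the tunicamycin libraries below all others. It rose with the cytokines (log2 fold change 0.45 ± 0.04 SE, adjusted *P* = 5.8e-10), and fell 4.18-fold with tunicamycin (log2 fold change -2.06 ± 0.04 SE, adjusted *P* = 5.2e-23) and 2.52-fold in set A (log2 fold change -1.33 ± 0.04 SE, adjusted *P* = 6.8e-19). The log2 fold changes for Sal003 and set B were -0.51 ± 0.04 SE (adjusted *P* = 1.2e-10) and -0.63 ± 0.04 SE (adjusted *P* = 2.2e-12). Per kilobase, *Pfkfb4* held 83.5 ± 0.639% of the summed level of the PFKFB genes shown in IL-4/IL-13 and 33.2 ± 1.25% in tunicamycin cells, and *Pfkfb3* 13.9 ± 0.809% and 62.6 ± 1.05%. This sum includes *Pfkfb2*, whose level is uncertain. *Pfkfb2* stayed between 9.32 and 11.8 CPM, with a log2 fold change of -0.33 (adjusted *P* = 0.0068) with the cytokines, lost without mouse 1 or 5, and no call with any inhibitor. With the mouse as a block its Sal003 difference passed (0.23, adjusted *P* = 0.039).

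**Figure D2:**
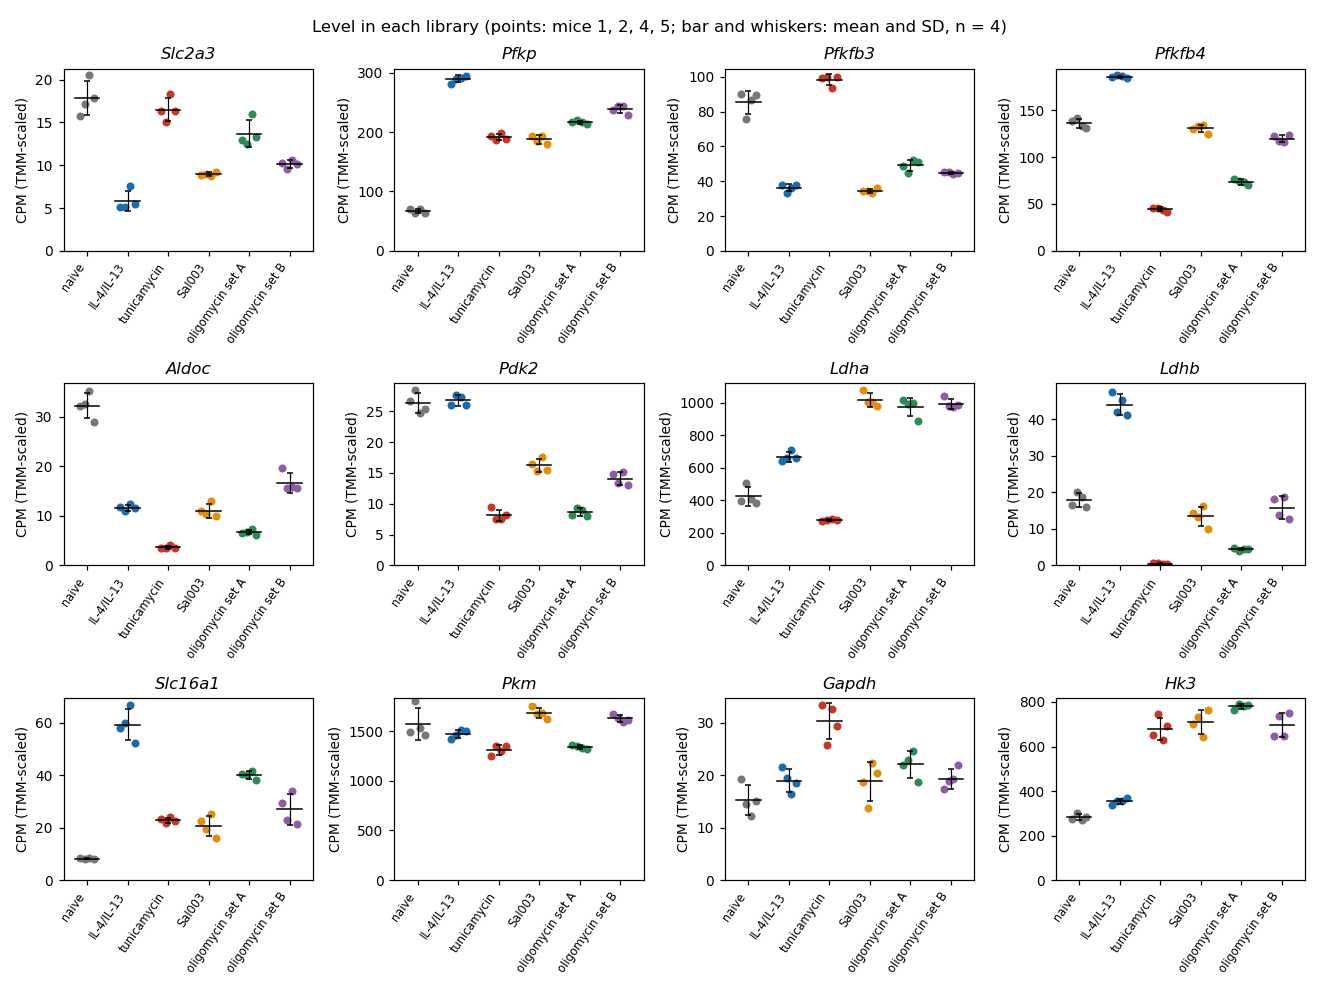
Level of the genes with the largest changes, of the most measured steps (*Gapdh*, *Pkm*, *Ldha*) and of *Hk3*, in CPM from 0 on a linear axis, for the 6 conditions. Points are the libraries of the 4 mice and bars are the mean ± SD: *Ldhb* falls from 44.0 CPM in IL-4/IL-13 to 0.523 CPM in tunicamycin libraries, while *Ldha* lies at 279 CPM with tunicamycin and at 973 to 1016 CPM with the other inhibitors.

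Aldolase splits fructose 1,6-bisphosphate, and its widely expressed form *Aldoa* rose with the cytokines from 1162 ± 131 to 1563 ± 19.6 CPM (log2 fold change 0.43 ± 0.06 SE, adjusted *P* = 4.8e-07). With inhibitors, *Aldoa* stayed between 1601 and 1751 CPM, and only the set B difference was called (0.16, adjusted *P* = 0.018), a call lost without mouse 1, 4 or 5. *Aldoc* (ENSMUSG00000017390, chr11:78213619-78218889 of GRCm39, plus strand), the brain-type form, had 32.2, 32.5, 35.2 and 29.0 CPM in naive and 11.8, 11, 12.4 and 11.5 in IL-4/IL-13 libraries. It had 3.59, 3.57, 4.14 and 3.51 CPM with tunicamycin and 10.9, 10.3, 13.1 and 10.0 with Sal003. Oligomycin libraries had 6.53, 6.82, 7.28 and 6.24 CPM in set A and 19.7, 15.6, 15.9 and 15.6 in set B. Naive libraries were above all others and tunicamycin libraries below all others, while Sal003 overlapped with IL-4/IL-13. *Aldoc* fell 2.76-fold with the cytokines (log2 fold change -1.47 ± 0.09 SE, adjusted *P* = 1.4e-13) and 3.15-fold further with tunicamycin (log2 fold change -1.66 ± 0.10 SE, adjusted *P* = 2.3e-13). The 2 oligomycin sets lay on opposite sides of IL-4/IL-13, with log2 fold changes of -0.80 ± 0.10 SE (adjusted *P* = 6.6e-08) in set A and 0.52 ± 0.09 SE (adjusted *P* = 2.1e-05) in set B.

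Triose phosphate isomerase, *Tpi1*, did not pass the test with the cytokines (log2 fold change 0.05 ± 0.06 SE, adjusted *P* = 0.55) and was lower with tunicamycin (156 ± 6.60 against 235 ± 4.93 CPM, log2 fold change -0.59 ± 0.06 SE, adjusted *P* = 6.3e-09). It was higher in set A and set B by 0.16 (adjusted *P* = 0.031) and 0.21 (adjusted *P* = 0.0057), calls lost without mouse 1 or 4 and without mouse 1, and its Sal003 difference was 0.04 (adjusted *P* = 0.65). *Gapdh* (ENSMUSG00000057666, chr6:125135289-125143518 of GRCm39, minus strand), the gene of the NADH-producing step that is often used as a reference, shares most of its sequence with pseudogenes, as given above. Its levels were 19.2, 14.6, 12.2 and 15.1 CPM in naive, 21.5, 19.5, 16.4 and 18.5 in IL-4/IL-13 and 33.3, 25.8, 32.6 and 29.3 in tunicamycin libraries. They were 18.7, 13.8, 22.3 and 20.5 CPM with Sal003. Oligomycin libraries had 22.0, 22.9, 24.7 and 18.7 CPM in set A and 17.3, 18.8, 19.3 and 21.9 in set B. The tunicamycin libraries were above all others, and the remaining conditions overlapped. Only the tunicamycin difference was called (log2 fold change 0.67 ± 0.13 SE, adjusted *P* = 5.3e-05). The cytokine difference was 0.31 ± 0.14 SE (adjusted *P* = 0.054), which passed with the mouse as a block (adjusted *P* = 0.042). Of the *Gapdh* exons, 41.6% overlap *Iffo1* on the opposite strand, so reads can also be shared with that gene.

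The next steps rose together with the cytokines. *Pgk1*, which makes the first ATP of the payoff phase, rose from 37.8 ± 6.99 to 90.5 ± 3.98 CPM (log2 fold change 1.26 ± 0.09 SE, adjusted *P* = 5.1e-12). Phosphoglycerate mutase *Pgam1* rose from 22.3 ± 1.15 to 37.9 ± 1.51 CPM (log2 fold change 0.76 ± 0.09 SE, adjusted *P* = 1.4e-07) and enolase *Eno1* from 262 ± 49.0 to 465 ± 11.3 CPM (log2 fold change 0.83 ± 0.08 SE, adjusted *P* = 5.2e-09). With inhibitors they parted. *Pgk1* was lower with Sal003 and both oligomycin sets (log2 fold changes -0.62, adjusted *P* = 1.3e-06, -0.71, adjusted *P* = 7.4e-08 and -0.38, adjusted *P* = 5.5e-04), with -0.26 (adjusted *P* = 0.0083) for tunicamycin, a call lost without mouse 1 or 4. *Pgam1* was higher in set A and set B (0.79, adjusted *P* = 2.2e-08 and 0.54, adjusted *P* = 1.4e-05), with 0.02 (adjusted *P* = 0.88) for tunicamycin and 0.15 (adjusted *P* = 0.18) for Sal003. *Eno1* was lower with tunicamycin (-0.71, adjusted *P* = 3.9e-08), Sal003 (-0.31, adjusted *P* = 0.0029) and set B (-0.32, adjusted *P* = 0.0025), with -0.24 (adjusted *P* = 0.014) for set A, a call lost without mouse 4.

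*Eno2* and *Eno3*, the enolases of neurons and muscle, were at 5.11 to 17.6 CPM. *Eno2* was highest in set A (17.6 ± 1.32 against 8.36 ± 0.614 CPM in IL-4/IL-13, log2 fold change 1.08 ± 0.12 SE, adjusted *P* = 1.9e-08), and was also higher with tunicamycin and in set B (0.61, adjusted *P* = 8.5e-05 and 0.69, adjusted *P* = 3.7e-05). *Eno3* fell with the cytokines (log2 fold change -0.60 ± 0.11 SE, adjusted *P* = 6.3e-05) and was higher with tunicamycin and in set A (0.93, adjusted *P* = 4.5e-08 and 0.69, adjusted *P* = 7.3e-06). Its smaller differences for Sal003 and set B (0.29, adjusted *P* = 0.042 and 0.38, adjusted *P* = 0.0077) were lost when single mice were left out. *Eno2* did not pass with the cytokines (-0.21, adjusted *P* = 0.15) or Sal003 (0.06, adjusted *P* = 0.70). Pyruvate kinase, *Pkm*, the last step of glycolysis, had 1491, 1810, 1538 and 1462 CPM in naive and 1422, 1462, 1508 and 1500 in IL-4/IL-13 libraries. With inhibitors it had 1252, 1355, 1300 and 1356 CPM (tunicamycin) and 1752, 1672, 1681 and 1628 (Sal003). In the oligomycin libraries they were 1360, 1350, 1334 and 1320 (set A) and 1675, 1637, 1596 and 1616 (set B). Its means spanned 1316 to 1683 CPM. The cytokine difference was -0.10 ± 0.05 SE (adjusted *P* = 0.10), and the inhibitor differences of -0.16 (adjusted *P* = 0.0058), 0.19 (adjusted *P* = 0.0027), -0.14 (adjusted *P* = 0.022) and 0.15 (adjusted *P* = 0.017) (tunicamycin, Sal003, set A, set B) were each lost when 1 or more of the mice were left out. *Pkm* splice forms cannot be told apart in gene counts.

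Lactate dehydrogenase gave the widest spread of the 38 genes. *Ldha* (ENSMUSG00000063229, chr7:46490899-46505061 of GRCm39, plus strand), the subunit that favors reduction of pyruvate, had 397, 508, 408 and 385 CPM in naive and 640, 657, 706 and 662 in IL-4/IL-13 libraries. It had 274, 280, 285 and 279 CPM with tunicamycin and 1079, 1003, 1004 and 979 with Sal003. Oligomycin libraries had 1015, 991, 996 and 889 CPM in set A and 1040, 977, 974 and 984 in set B. Tunicamycin libraries were below all others, and the libraries of the other inhibitors above all IL-4/IL-13 libraries. *Ldha* rose with the cytokines (log2 fold change 0.65 ± 0.06 SE, adjusted *P* = 2.6e-09) and fell 2.38-fold with tunicamycin (log2 fold change -1.25 ± 0.06 SE, adjusted *P* = 4.0e-15). It was higher with Sal003 (0.61 ± 0.06 SE, adjusted *P* = 1.4e-08), in set A (0.55 ± 0.06 SE, adjusted *P* = 4.0e-08) and in set B (0.58 ± 0.06 SE, adjusted *P* = 3.0e-08). Tested directly, the log2 difference was -1.86 (adjusted *P* = 2.1e-18) for tunicamycin minus Sal003, -1.80 (adjusted *P* = 7.3e-18) minus set A and -1.83 (adjusted *P* = 3.3e-18) minus set B.

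*Ldhb* (ENSMUSG00000030246, chr6:142435672-142454586 of GRCm39, minus strand), the subunit that favors oxidation of lactate, had 16.5, 20.2, 18.6 and 16.0 CPM in naive and 47.5, 42.1, 45.2 and 41.2 in IL-4/IL-13 libraries. It had 0.564, 0.666, 0.453 and 0.407 CPM with tunicamycin, or 8 to 14 counts per library, and 14.4, 13.2, 16.2 and 9.93 CPM with Sal003. Oligomycin libraries had 4.83, 4.00, 4.61 and 4.39 CPM in set A and 18.3, 13.8, 18.7 and 12.6 in set B. All IL-4/IL-13 libraries were above all others, and all tunicamycin libraries below all others. *Ldhb* rose 2.47-fold with the cytokines (log2 fold change 1.31 ± 0.12 SE, adjusted *P* = 5.7e-10), just under the 2.5-fold limit. Against IL-4/IL-13 it fell 82.6-fold with tunicamycin (log2 fold change -6.37 ± 0.19 SE, adjusted *P* = 7.1e-20) and 9.87-fold in set A (log2 fold change -3.30 ± 0.14 SE, adjusted *P* = 1.5e-16). Sal003 and set B had log2 fold changes of -1.71 ± 0.12 SE (adjusted *P* = 1.5e-11) and -1.48 ± 0.12 SE (adjusted *P* = 1.2e-10). Neutrophil marker sums were below those of IL-4/IL-13 libraries with tunicamycin, Sal003 and set A and overlapped with them in set B, and dendritic cell marker sums were below them with every inhibitor. Naive libraries, with lower *Ldhb*, had neutrophil marker sums of 31.4 to 61.2 CPM, against 18.1 to 33.4 in IL-4/IL-13 libraries. Their dendritic cell marker sums were 2.52 to 5.61 CPM, against 4.53 to 6.37 in IL-4/IL-13 libraries. The part of these cells in the *Ldhb* values was not tested. *Ldhb* went from 6.52 ± 0.505% of the length-scaled lactate dehydrogenase level in IL-4/IL-13 to 0.197 ± 0.0446% in tunicamycin and 0.481 ± 0.0411% in set A cells. The level of *Ldha* in this sum is uncertain, as given above.

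Monocarboxylate transporters carry lactate and pyruvate across the cell membrane. *Slc16a1* (ENSMUSG00000032902, chr3:104545811-104565780 of GRCm39, plus strand), which encodes MCT1, had 8.29, 8.24, 8.31 and 8.09 CPM in naive and 58.1, 60.1, 66.7 and 52.5 in IL-4/IL-13 libraries. It had 23.4, 21.7, 24.0 and 22.4 CPM with tunicamycin and 22.4, 19.4, 25.1 and 16.2 with Sal003. Oligomycin libraries had 40.5, 40.1, 41.5 and 38.1 CPM in set A and 29.4, 23.0, 34.0 and 21.6 in set B. All inhibitor libraries lay between the naive and the IL-4/IL-13 libraries. The rise with the cytokines was the largest of the 38 genes, 7.21-fold (log2 fold change 2.85 ± 0.13 SE, adjusted *P* = 7.0e-16). It fell 2.60-fold with tunicamycin (log2 fold change -1.38 ± 0.11 SE, adjusted *P* = 4.2e-11) and 2.86-fold with Sal003 (log2 fold change -1.52 ± 0.11 SE, adjusted *P* = 4.5e-11). The oligomycin log2 fold changes were -0.57 ± 0.11 SE (adjusted *P* = 5.4e-05) in set A and -1.15 ± 0.11 SE (adjusted *P* = 3.4e-09) in set B.

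*Slc16a3*, which encodes the lactate exporter MCT4, moved differently. It was 56.5 ± 4.40 CPM in naive and 48.9 ± 3.20 in IL-4/IL-13 cells (log2 fold change -0.21, adjusted *P* = 0.030, lost without mouse 1 or 2). It was higher in set A (92.0 ± 8.68 CPM, log2 fold change 0.91 ± 0.08 SE, adjusted *P* = 2.9e-10), in set B (log2 fold change 0.56 ± 0.08 SE, adjusted *P* = 1.9e-06) and with tunicamycin (log2 fold change 0.39 ± 0.08 SE, adjusted *P* = 1.1e-04). The Sal003 difference was -0.08 (adjusted *P* = 0.41). The share of *Slc16a1* in the length-scaled sum of both transporters was 23.8 ± 1.29% in naive and 72.1 ± 1.08% in IL-4/IL-13 cells, and 43.3 ± 2.71%, 48.8 ± 2.83%, 48.3 ± 1.51% and 44.1 ± 3.49% with tunicamycin, Sal003, set A and set B. *Slc16a7* (MCT2) is not in this sum, and its level was 59.5 ± 9.16 CPM in naive, 33.5 ± 2.79 in IL-4/IL-13 and 64.5 ± 3.48 in tunicamycin cells. Reads of *Slc16a3* can be shared with *Csnk1d* on the opposite strand.

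**Figure D3:**
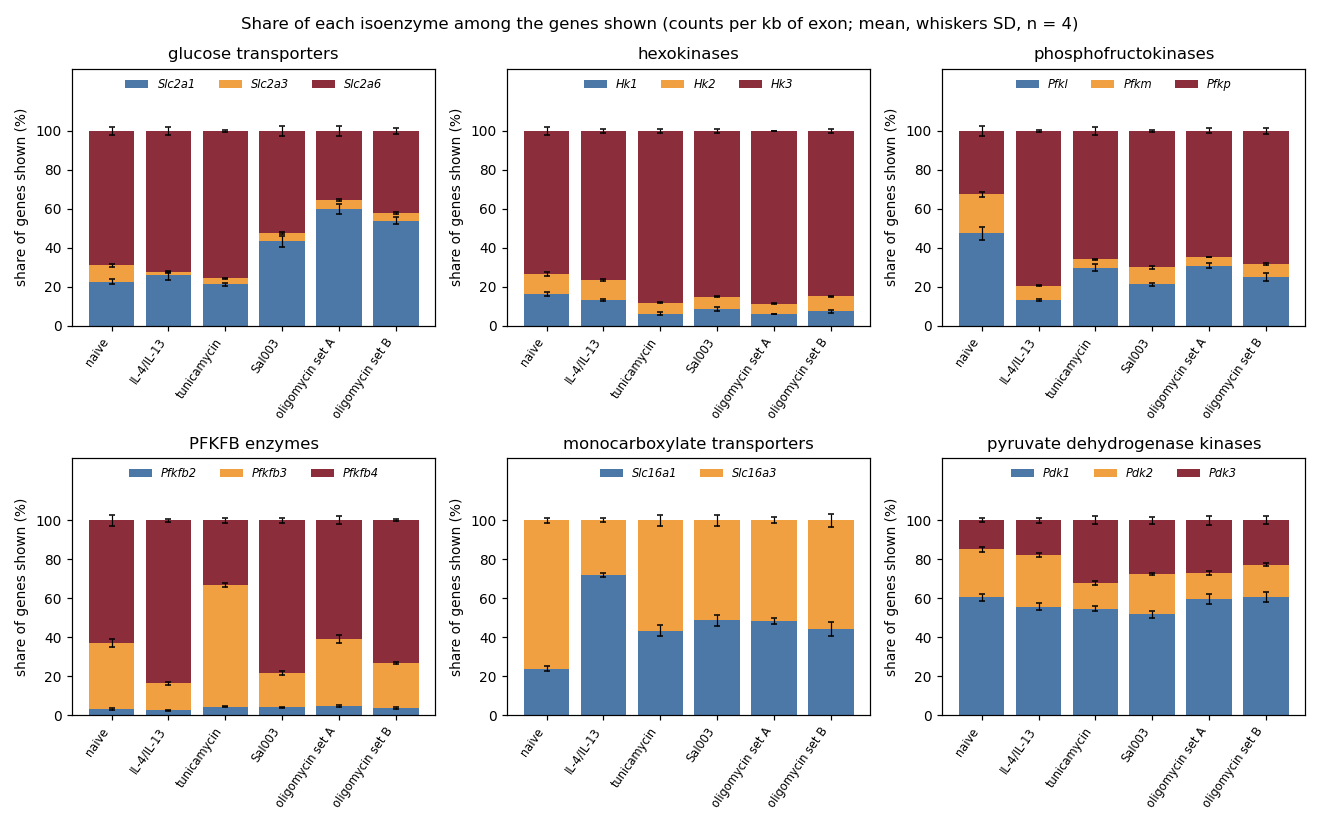
Share of each isoenzyme (vertical axis, percent) in the summed level of the isoenzymes shown in its panel, computed per library from counts per kilobase of exon, for the 6 conditions. Stacked bars are means and whiskers SD of 4 libraries: *Pfkp* goes from 32.5% in naive to 79.4% in IL-4/IL-13 cells, *Slc16a1* from 23.8% to 72.1%, and *Pfkfb3* from 13.9% in IL-4/IL-13 to 62.6% in tunicamycin cells. Other measured members, such as *Slc16a7*, *Slc2a8* and *Slc2a9*, are not in the sums, and the panels with *Pfkp*, *Pfkl*, *Pfkfb2* and *Slc16a3* hold genes of uncertain level.

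Pyruvate dehydrogenase kinases inactivate the pyruvate dehydrogenase complex, and *Pdk2* fell with every inhibitor. *Pdk2* (ENSMUSG00000038967, chr11:94914929-94932242 of GRCm39, minus strand) had 26.6, 28.5, 24.8 and 25.4 CPM in naive and 26.1, 27.6, 27.4 and 26.0 in IL-4/IL-13 libraries. It had 9.44, 7.52, 7.48 and 8.15 CPM with tunicamycin and 16.5, 15.3, 17.6 and 15.5 with Sal003. Oligomycin libraries had 8.19, 9.35, 8.95 and 8.04 CPM in set A and 14.8, 13.3, 15.2 and 13.1 in set B. Naive and IL-4/IL-13 libraries overlapped, and all inhibitor libraries were below both. The cytokine difference was 0.02 ± 0.07 SE (adjusted *P* = 0.78). *Pdk2* fell 3.28-fold with tunicamycin (log2 fold change -1.71 ± 0.08 SE, adjusted *P* = 1.7e-16) and 3.10-fold in set A (log2 fold change -1.63 ± 0.08 SE, adjusted *P* = 1.1e-15). It had log2 fold changes of -0.72 ± 0.07 SE (adjusted *P* = 5.3e-09) for Sal003 and -0.93 ± 0.07 SE (adjusted *P* = 5.5e-11) for set B. Of the *Pdk2* exons, 28.8% overlap genes on the opposite strand.

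*Pdk1* was lower with the cytokines (-0.21, adjusted *P* = 0.023, lost without mouse 1, 2 or 4) and fell with tunicamycin, Sal003 and set A (-0.70, adjusted *P* = 3.0e-08, -0.45, adjusted *P* = 5.4e-05 and -0.57, adjusted *P* = 9.6e-07), and its set B difference was -0.12 (adjusted *P* = 0.21). *Pdk3* just passed with the cytokines (0.16, adjusted *P* = 0.050, lost without mouse 1, 4 or 5, and with the mouse as a block, adjusted *P* = 0.054). It was higher with Sal003 (0.30, adjusted *P* = 4.3e-04) and with tunicamycin (0.19, adjusted *P* = 0.011), a call lost under upper-quartile scaling, with -0.07 (adjusted *P* = 0.39) in set A and 0.12 (adjusted *P* = 0.14) in set B. *Pdk3* held 17.7 ± 1.21% of the length-scaled kinase level in IL-4/IL-13 and 32.3 ± 2.03% in tunicamycin cells, and *Pdk2* 26.7 ± 0.893% and 13.0 ± 1.14%. *Pdha1*, the catalytic subunit that these kinases phosphorylate, rose with the cytokines from 65.9 ± 1.05 to 98.3 ± 3.03 CPM (log2 fold change 0.58 ± 0.04 SE, adjusted *P* = 9.3e-12) and with tunicamycin to 138 ± 1.58 CPM (log2 fold change 0.49 ± 0.04 SE, adjusted *P* = 6.6e-11). Its differences with Sal003, set A and set B were -0.00 (adjusted *P* = 0.97), 0.03 (adjusted *P* = 0.59) and -0.06 (adjusted *P* = 0.20).

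In the oxidative branch of the pentose phosphate pathway, the NADPH-producing dehydrogenases did not pass the test with the cytokines and fell with every inhibitor. *G6pdx*, the entry enzyme, was 384 ± 26.3 CPM in naive and 387 ± 18.1 in IL-4/IL-13 cells (log2 fold change 0.01 ± 0.05 SE, adjusted *P* = 0.83). It fell to 239 ± 5.70 CPM with tunicamycin (log2 fold change -0.70 ± 0.05 SE, adjusted *P* = 7.8e-13) and 184 ± 5.46 in set A (log2 fold change -1.08 ± 0.05 SE, adjusted *P* = 4.1e-16). Its log2 fold changes were -0.33 (adjusted *P* = 1.7e-06) for Sal003 and -0.36 (adjusted *P* = 3.8e-07) for set B. *Pgd*, the second dehydrogenase, was 749 ± 50.4 and 781 ± 28.1 CPM in naive and IL-4/IL-13 cells (log2 fold change 0.06 ± 0.05 SE, adjusted *P* = 0.32). Its log2 fold changes were -0.72 (adjusted *P* = 2.8e-12) with tunicamycin, -0.42 (adjusted *P* = 1.7e-07) with Sal003, -0.76 (adjusted *P* = 2.1e-12) in set A and -0.52 (adjusted *P* = 4.3e-09) in set B. *Pgls*, the lactonase between them, had small differences with the cytokines (0.21, adjusted *P* = 0.042) and tunicamycin (-0.26, adjusted *P* = 0.0078), both lost without mouse 1, 4 or 5, and -0.08 (adjusted *P* = 0.47), -0.10 (adjusted *P* = 0.29) and -0.05 (adjusted *P* = 0.66) with Sal003, set A and set B.

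The non-oxidative branch, which interconverts sugars and links ribose 5-phosphate to glycolysis, was split. Transketolase *Tkt* rose with the cytokines from 300 ± 25.8 to 531 ± 18 CPM (log2 fold change 0.82 ± 0.06 SE, adjusted *P* = 4.9e-12). It fell to 269 ± 10.0 with tunicamycin (log2 fold change -0.98 ± 0.06 SE, adjusted *P* = 5.5e-14) and 302 ± 8.05 in set A (log2 fold change -0.81 ± 0.06 SE, adjusted *P* = 4.8e-12). Its log2 fold changes were -0.33 (adjusted *P* = 2.9e-05) for Sal003 and -0.38 (adjusted *P* = 4.1e-06) for set B. Transaldolase *Taldo1* did not pass with the cytokines (-0.09, adjusted *P* = 0.21) and fell 2.41-fold with tunicamycin, from 522 ± 26.1 to 216 ± 3.77 CPM (log2 fold change -1.27 ± 0.06 SE, adjusted *P* = 3.1e-15). Its set A difference was -0.36 (adjusted *P* = 1.9e-05), that of set B 0.10 (adjusted *P* = 0.18), and that of Sal003 0.17 (adjusted *P* = 0.032), lost without mouse 1, 4 or 5. The isomerase *Rpia* rose with the cytokines (log2 fold change 0.68 ± 0.08 SE, adjusted *P* = 1.2e-07) and fell with tunicamycin (log2 fold change -0.73 ± 0.08 SE, adjusted *P* = 1.7e-08), and its other differences lay between -0.07 and 0.02 and were not called. The epimerase *Rpe* rose with the cytokines (0.23, adjusted *P* = 8.0e-05) and was higher with tunicamycin (0.41, adjusted *P* = 4.5e-09), Sal003 (0.25, adjusted *P* = 3.6e-05), set A (0.56, adjusted *P* = 2.3e-11) and set B (0.33, adjusted *P* = 3.7e-07).

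Oligomycin set A was compared with set B, which differ by the presence of ISRIB in 1 of them, a difference whose direction the labels leave in conflict. Of the 38 genes, 10 were higher in set A and 17 lower, beside 19.9% and 21.3% of all genes, and *Ldhb* alone passed 2.5-fold (log2 fold change -1.82 ± 0.14 SE, adjusted *P* = 2.0e-10), beside 2.62% of all genes. By DESeq2, and without mouse 2 or 4, 2 genes passed it. *Aldoc* was 2.48-fold lower in set A (log2 fold change -1.31 ± 0.09 SE, adjusted *P* = 3.2e-11). Next came *G6pdx* (-0.72, adjusted *P* = 9.2e-12), *Pfkfb4* (-0.70, adjusted *P* = 1.5e-12), *Pdk2* (-0.70, adjusted *P* = 7.0e-08), *Pfkm* (-0.64, adjusted *P* = 2.3e-07), *Taldo1* (-0.47, adjusted *P* = 1.7e-06), *Pdk1* (-0.45, adjusted *P* = 7.0e-05), *Tkt* (-0.44, adjusted *P* = 9.8e-07) and *Hk2* (-0.42, adjusted *P* = 1.5e-05), all lower in set A. *Slc16a1* (0.58, adjusted *P* = 1.8e-04), *Slc2a3* (0.43, adjusted *P* = 0.0013), *Eno2* (0.39, adjusted *P* = 0.0073), *Slc16a3* (0.35, adjusted *P* = 7.7e-04) and *Slc2a1* (0.33, adjusted *P* = 0.0028) were higher in set A, the call of *Eno2* being lost without mouse 1. The sets were not told apart for *Ldha* (-0.03 ± 0.06 SE, adjusted *P* = 0.75) and *Slc2a6* (-0.07 ± 0.06 SE, adjusted *P* = 0.40), and for *Pfkfb3* (0.13, adjusted *P* = 0.069) only with the mouse as a block (adjusted *P* = 0.044). Scaling by library totals alone moved the median of all genes in this comparison to 0.11, and no called gene of the 38 changed sign.

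**Figure D4:**
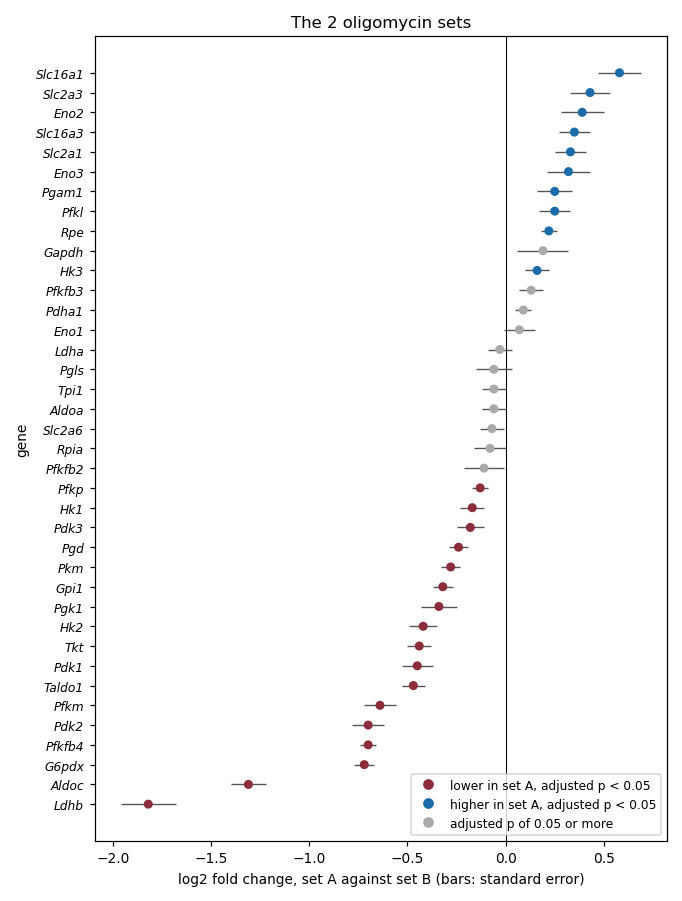
Log2 fold change of oligomycin set A against set B (horizontal axis) for the 38 genes (vertical axis, sorted by value), with the standard error as bars and 4 libraries per set. Red points are lower and blue points higher in set A at an adjusted p below 0.05, and the range runs from *Ldhb* (-1.82) to *Slc16a1* (0.58).

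Inhibitors were also compared with each other for single genes. Tunicamycin exceeded Sal003 in *Pfkfb3* by 1.51 (adjusted *P* = 6.0e-18), and the differences of tunicamycin minus Sal003 were -4.66 (adjusted *P* = 4.7e-16) in *Ldhb*, -1.58 (adjusted *P* = 7.7e-13) in *Aldoc*, -1.56 (adjusted *P* = 1.5e-20) in *Pfkfb4* and -1.44 (adjusted *P* = 3.4e-16) in *Taldo1*, on the log2 scale. Tunicamycin and set A were not told apart for *Pdk2* (-0.08 ± 0.08 SE, adjusted *P* = 0.39), and *G6pdx* was higher with tunicamycin than in set A (0.38, adjusted *P* = 1.3e-07). For *Slc16a1*, set A exceeded tunicamycin and Sal003 (tunicamycin minus set A -0.81, adjusted *P* = 9.6e-07, Sal003 minus set A -0.95, adjusted *P* = 1.8e-07), while tunicamycin and Sal003 differed by 0.14 ± 0.12 SE (adjusted *P* = 0.30). For *Hk3*, neither tunicamycin nor Sal003 was told apart from set B. The differences were -0.04 ± 0.06 SE (adjusted *P* = 0.59) for tunicamycin minus set B and 0.03 ± 0.06 SE (adjusted *P* = 0.81) for Sal003 minus set B.

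Further genes of the pathway were read from lists. Of 12 genes of pyruvate entry into mitochondria, 10 were tested. With the cytokines 7 rose and 1 fell, beside 30.1% and 30.4% of all genes, and those that rose include *Dlat*, a subunit of the pyruvate dehydrogenase complex (log2 fold change 0.87 ± 0.05 SE, adjusted *P* = 7.6e-14), and the phosphatase gene *Pdp1* (0.68, adjusted *P* = 3.0e-11). With tunicamycin 4 were higher and 4 lower (38.7% and 37.7% of all genes), and *Pcx*, pyruvate carboxylase, was higher (log2 fold change 1.61 ± 0.14 SE, adjusted *P* = 7.2e-11). Sal003 had 3 higher and 3 lower (25.9% and 24.6% of all genes), set A 1 and 4 (34.0% and 32.2%), and set B 1 and 3 (27.9% and 26.4%). Of 13 genes of glycogen and hexose side routes, all tested, 6 rose and 4 fell with the cytokines, beside 30.1% and 30.4% of all genes. With tunicamycin 6 were higher and 5 lower, which are 46.2% and 38.5% of the list beside 38.7% and 37.7% of all genes. Sal003 had 5 and 4, set A 6 and 6 and set B 5 and 5, to be read against the shares of all genes just given for these comparisons. *Gfpt1*, the first enzyme of the hexosamine pathway that supplies sugars for N-glycosylation, rose from 34.1 ± 1.17 to 438 ± 24.6 CPM with tunicamycin (log2 fold change 3.68 ± 0.06 SE, adjusted *P* = 2.6e-25), and *Pgm3*, in the same pathway, from 10.8 ± 0.783 to 44.1 ± 1.68 CPM (log2 fold change 2.03 ± 0.06 SE, adjusted *P* = 2.8e-20). *Gfpt1* was also higher in set A (1.44, adjusted *P* = 2.6e-17).

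Of 6 genes of the reverse steps, 3 were tested. *Fbp1*, fructose 1,6-bisphosphatase, had 25 to 38 counts per IL-4/IL-13 library and 3 counts or fewer in every library of the other conditions, with no count in any Sal003 or set B library. A count of 0 allows up to 3 counts, which covers counting error only, so no fold change is given. *Pck2*, the mitochondrial enzyme that makes phosphoenolpyruvate, fell with the cytokines (log2 fold change -1.0 ± 0.06 SE, adjusted *P* = 1.3e-13) and was higher in set A and set B (1.58, adjusted *P* = 1.2e-17 and 2.07, adjusted *P* = 5.0e-19). Of 11 regulators, 10 were tested, and 3 rose and 3 fell with the cytokines, or 30.0% each beside 30.1% and 30.4% of all genes. *Myc*, a transcription factor of glycolytic genes, rose from 8.27 ± 0.716 to 63.2 ± 3.41 CPM (log2 fold change 2.93 ± 0.11 SE, adjusted *P* = 2.1e-17) and was lower with Sal003 (-1.47, adjusted *P* = 4.7e-12), set A (-0.93, adjusted *P* = 3.5e-09), set B (-1.44, adjusted *P* = 4.7e-12) and tunicamycin (-0.37, adjusted *P* = 8.7e-04). *Egln3*, a prolyl hydroxylase that marks HIF subunits for degradation, fell with the cytokines to 0.659 ± 0.174 CPM (log2 fold change -2.03 ± 0.26 SE, adjusted *P* = 2.0e-07). It was higher with tunicamycin (1.19, adjusted *P* = 3.9e-04) and in set A (1.55, adjusted *P* = 1.3e-05), with -0.55 (adjusted *P* = 0.18) for Sal003 and 0.63 (adjusted *P* = 0.069) for set B. *Txnip*, a glucose-responsive gene whose product restrains glucose uptake, fell with the cytokines (log2 fold change -0.70 ± 0.04 SE, adjusted *P* = 4.7e-13) and was lower with Sal003 (-1.31, adjusted *P* = 3.0e-17), set A (-1.02, adjusted *P* = 2.5e-16) and set B (-1.18, adjusted *P* = 7.7e-17), with -0.07 (adjusted *P* = 0.14) for tunicamycin. *Epas1*, which encodes HIF-2α, fell from 4.76 ± 0.506 to 0.408 ± 0.120 CPM with tunicamycin (log2 fold change -3.51 ± 0.27 SE, adjusted *P* = 1.2e-11). Regulators numbered 4 higher and 4 lower with tunicamycin (38.7% and 37.7% of all genes), 1 and 4 with Sal003 (25.9% and 24.6%), 3 and 4 in set A (34.0% and 32.2%) and 1 and 3 in set B (27.9% and 26.4%).

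Of 27 other isoenzymes and transporters, 13 were tested, and 4 rose and 6 fell with the cytokines, beside 30.1% and 30.4% of all genes. *Adpgk*, an ADP-dependent glucokinase, fell (log2 fold change -0.71 ± 0.05 SE, adjusted *P* = 2.2e-11) and was higher with tunicamycin (log2 fold change 1.26 ± 0.05 SE, adjusted *P* = 5.2e-17) and in set A (0.85, adjusted *P* = 3.9e-13). *Ldhd*, a mitochondrial D-lactate dehydrogenase, had 23 counts or fewer in every library and log2 fold changes of -1.29 (adjusted *P* = 8.2e-04) with the cytokines, 0.55 (adjusted *P* = 0.14) with tunicamycin, 0.33 (adjusted *P* = 0.45) with Sal003, 1.25 (adjusted *P* = 9.5e-04) in set A and 0.63 (adjusted *P* = 0.11) in set B. With tunicamycin 5 of the 13 were higher and 3 lower (beside 38.7% and 37.7% of all genes), with Sal003 7 and 1 (25.9% and 24.6%), in set A 6 and 4 (34.0% and 32.2%) and in set B 6 and 1 (27.9% and 26.4%). The low-level enolase gene *Eno4* had 15 to 24 counts per IL-4/IL-13 library and 0 to 5 per naive library.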

How the data were processed

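Polyadenylated RNA of 24 BMDM libraries (6 conditions, 4 mice) was sequenced by the authors as single reads. Per the labels and the methods of the study, reads were trimmed with Cutadapt 1.8, cleared of ribosomal and low-complexity reads, aligned to GRCm39 with STAR 2.7 and counted per gene with htseq-count 0.9.1. The strand setting is not given in the sources used here. The deposited values are raw counts for 56884 genes. 5 rows that belong to no gene, with 12.7% to 15.2% of the reads, were left out. TPM values from RSEM 1.2.31 were also deposited and were not used, because their columns could not be matched to libraries by name.

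Groups were taken from the sample labels. Counts were tested with edgeR 4.0.16 (R 4.3.3): TMM scaling, the low-count filter filterByExpr and 1 quasi-likelihood model of all libraries, with Benjamini-Hochberg adjustment over the 13679 genes tested in each comparison. A gene was called at an adjusted *P* below 0.05, and changes of at least 2.5-fold were counted separately. The 4 libraries of each condition were not duplicates of each other (chi-square per gene 2.19 to 35.9). Same-numbered libraries come from the same mouse, as the labels state, and their deviations from group means had a median correlation of 0.27 (above 0.1 in 56 of 60 pairs), against -0.06 for other mice. DESeq2 1.42.0 and a mouse block were among the alternatives. Shares are over those of the 38 genes that belong to 1 isoenzyme family, leave its other genes out, and used counts per kilobase of all exons (GENCODE on GRCm39), without a test. The code was tested on simulated data. Counts at 3 or fewer in every library of a group were treated as a floor.

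The 38 genes and all other lists were chosen with earlier results of these data known. Every one of the 38 is reported, and values per library are given for genes that changed at least 2.5-fold in any comparison and for *Gapdh*, *Pkm* and *Ldha*. *Hk3* is also given per library, and was chosen for this after its values were seen. From other lists at most 6 genes are named, by the largest absolute log2 fold change. *Slc2a8* is also named, because it is left out of a share, and *Adgre1* and *Csf1r*, chosen after their values were seen.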

Additional observations from a re-analysis of the deposited data

Results flagged for a closer look

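In a group of 4 libraries, a value was singled out when its gap to the nearest other library took a share of the group's range on the log2 scale above Dixon's critical value. This held for 12 of 228 groups of the 38 genes, and about 1 group in 20 would do so by chance.

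Naive mouse 2 gave 4 of them, each above the other 3 naive libraries. It had 516 CPM of *Gpi1* (others 436 to 446), 1356 CPM of *Aldoa* (1079 to 1120), 270 CPM of *Tpi1* (209 to 215) and 96.5 CPM of *Pgls* (62.4 to 67.2). Mouse 1 gave 4, namely *Pfkm* with tunicamycin at 6.21 CPM (others 7.09 to 7.20), *Eno2* with tunicamycin at 14.6 CPM (11.9 to 12.2), *Aldoc* in set B at 19.7 CPM (15.6 to 15.9) and *Ldha* in set B at 1040 CPM (974 to 984). Mouse 4 gave *Slc2a3* in IL-4/IL-13 at 7.58 CPM (others 5.14 to 5.46), *Pfkfb3* with tunicamycin at 93.8 CPM (99.3 to 100) and *Aldoc* with tunicamycin at 4.14 CPM (3.51 to 3.59). Mouse 5 gave *Pgk1* in IL-4/IL-13 at 84.6 CPM (92.0 to 92.8).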

How the results depend on the processing

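The 18 counts of called genes among the 38 were recomputed with DESeq2, other scalings, other filters, only the groups compared, the mouse as a block and each mouse left out, and 193 of 201 values stayed within 1.5 times. The exceptions were the 10 genes higher with Sal003, which became 5 with library totals alone and ranged from 5 to 10 without single mice, and counts of 2.5-fold changes that rest on 1 or 2 genes. Requiring at least 10 counts in every library removes *Ldhb* from the test, which left 1 gene for Sal003, 0 for set B and 0 between the sets by edgeR. No other of the 38 genes reached 2.5-fold in those 2 comparisons at any *P*, the next being *Slc2a6* in set B (-1.23) and *Aldoc* between the sets (-1.31). Between the sets, 2 genes passed with DESeq2, and 1 to 2 without single mice.

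Same-numbered libraries come from the same mouse, and with the mouse as a replicate block the counts of 2.5-fold changes were 4, 7, 2, 3, 1 and 1 in the order of the comparisons above, as without it. The block changed 6 calls: *Gapdh* with the cytokines, *Hk2* and *Pfkfb2* with Sal003, *Hk2* with tunicamycin and *Pfkfb3* between the sets passed under the block, and *Pdk3* with the cytokines no longer did. It changed no other call.

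Of 36 single fold changes, the 18 of at least 2.5-fold kept direction and call under every alternative that gave them a value. *Gapdh* and *Ldha* changed sign where they had not been called. For *Gapdh* with Sal003 the log2 fold change was 0.05 without mouse 1 and 0.12 without mouse 2 (-0.17 to 0.12 over the mice). For *Gapdh* in set B it was -0.02 by upper quartile, -0.04 by library totals, -0.00 with at least 10 counts in every library, -0.04 without mouse 4 and -0.06 without mouse 5 (-0.06 to 0.13 over the mice). For *Ldha* between the sets it was 0.01 by upper quartile, 0.09 by library totals and 0.01 without mouse 5. The cause was not tested.

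Of 173 calls over 6 comparisons, 31 were lost when 1 mouse was left out, with fewer libraries in the test. In IL-4/IL-13 against naive cells, they were *Pfkfb2* (mouse 1 or 5), *Slc16a3* (mouse 1 or 2), *Pdk1* (mouse 1, 2 or 4), *Pdk3* (mouse 1, 4 or 5), *Pgls* (mouse 1, 4 or 5). For tunicamycin, they were *Slc2a1* (mouse 1), *Pgk1* (mouse 1 or 4), *Pkm* (mouse 1, 4 or 5), *Pgls* (mouse 1, 4 or 5). For Sal003, they were *Hk1* (mouse 1 or 2), *Pfkl* (mouse 1 or 4), *Pfkm* (mouse 1, 2 or 5), *Eno3* (mouse 1, 4 or 5), *Pkm* (mouse 1), *Taldo1* (mouse 1, 4 or 5). For set A, they were *Hk1* (mouse 5), *Tpi1* (mouse 1 or 4), *Eno1* (mouse 4), *Pkm* (mouse 4 or 5). For set B, they were *Aldoa* (mouse 1, 4 or 5), *Tpi1* (mouse 1), *Eno3* (mouse 4 or 5), *Pkm* (mouse 1, 4 or 5). Between the oligomycin sets, they were *Hk1* (mouse 1, 2 or 5), *Hk3* (mouse 1 or 4), *Pfkl* (mouse 4), *Pfkp* (mouse 1 or 4), *Pgam1* (mouse 2 or 5), *Eno2* (mouse 1), *Eno3* (mouse 1 or 5), *Pdk3* (mouse 1 or 2). Upper-quartile scaling lost *Pdk3* and *Pgls* with the cytokines, *Pdk3* with tunicamycin, *Eno3* and *Taldo1* with Sal003, *Tpi1* in set A, *Aldoa* and *Pkm* in set B, and *Hk1* and *Pdk3* between the sets. Library totals lost *Hk1*, *Pfkl*, *Eno3*, *Pkm* and *Taldo1* with Sal003, *Pkm* in set A, *Aldoa* and *Pkm* in set B, and *Hk1*, *Pfkp* and *Pdk3* between the sets. DESeq2 lost *Slc16a3* and *Pdk1* with the cytokines, *Eno3* and *Taldo1* with Sal003 and *Tpi1* in set A.

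When the 12 genes with shared sequence were set aside, 26 remained, of which 13 rose and 6 fell with the cytokines, 9 and 16 with tunicamycin, 6 and 11 with Sal003, 7 and 14 in set A and 9 and 10 in set B. The shares of all genes beside them are 30.1% and 30.4%, 38.7% and 37.7%, 25.9% and 24.6%, 34.0% and 32.2%, and 27.9% and 26.4%. With the longest transcript as the length in place of all exons, shares moved by more than their SD in 24 of 30 cases, for example *Hk3* in IL-4/IL-13 cells to 70.8%, and *Slc2a6* in set B to 48.3%, beside 47.9% of *Slc2a1*, which turns their order there.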
